A study of Rattus norvegicus with 32 samples.

Results

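The 10 genes described here belong to the NRF2 antioxidant response. They are Nfe2l2, Keap1, Hmox1, Nqo1, Gclc, Gclm, Slc7a11, Txnrd1, Srxn1 and Osgin1, and they were chosen by name among the 26583 gene names on an Agilent rat array. All 10 had a probe, 12 probes in all, since Slc7a11 and Txnrd1 have 2 probes each. Of the 10 genes, 9 could be tested at 3 h and the same 9 at 6 h. The probe of Gclm, the modifier subunit of glutamate-cysteine ligase, was well above background on 0 of the 32 arrays, and no change is given for it. The other 9 were above background on all 16 arrays of each time interval.

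NRF2, encoded by Nfe2l2, is a transcription factor that binds antioxidant response elements together with a small MAF protein. KEAP1 holds NRF2 in the cytoplasm and marks it for degradation, and electrophiles or oxidants that modify KEAP1 let NRF2 accumulate. Its targets break down heme, reduce quinones, make glutathione and restore thioredoxin and peroxiredoxin. NRF2 is controlled mostly at the level of the protein. Slc7a11, the cystine transporter that feeds glutathione synthesis, is also a target of ATF4, the factor of the amino acid and unfolded protein stress responses.

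The samples were C6 cells, a rat glioma line, grown to confluence in medium with serum. Control cells had no treatment. The other groups received 100 nM Ang II, either alone (Ang II) or after 30 min with 10 µM Losartan, an AT1 receptor antagonist (Ang II+Los), or 10 µM PD123319, an AT2 receptor antagonist (Ang II+PD123319). RNA was taken at 3 h and at 6 h, with 4 replicates in each of the 8 groups. At each time, a replicate number is 1 slide that carries 1 array of each of the 4 groups of that time. Slides at 3 h and at 6 h were different, and a slide is named below by its replicate number. No group received an antagonist without Ang II, and nothing states that the replicates were separate cultures, so that p-values measure the spread between these samples. The 4 groups had the same order on every slide, with the Control array first and the Ang II+PD123319 array last, so that position and treatment cannot be told apart.

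Between 55.9% and 64.7% of the spots were well above background at 3 h, and between 64.2% and 79.8% at 6 h. Of the 7 astrocyte and glioma markers, S100b, Vim and Nes were above background on 32 of 32 arrays, Aqp4 on 23, Aldh1l1 on 17, Gfap on 2 and Slc1a3 on 0. Aif1, Cx3cr1 and Itgam, known from microglia and macrophages, were above background on 32 arrays, Csf1r on 29 and the leukocyte gene Ptprc on 0. The endothelial genes Pecam1 and Tek were above background on 0 arrays and Cdh5 on 28. The array of Ang II+Los replicate 2 at 3 h stood apart from the others of its slide in several members, as given below. That array had 57.8% of its spots well above background, against 61.2% to 64.7% on the other arrays of its slide. All levels that follow are log2 normalized signals, comparable for the same gene between arrays of the same time but not between genes. The 3 h and 6 h arrays were normalized separately, so that their levels are not on a common scale.

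RefSeq promoter sequences on GRCr8, from 250 bases before to 50 bases after the start, were held for 9 of the 10 members. Hmox1 had none and Txnrd1 had 2, which makes 10 sequences. The NRF2 element was searched on both strands as its core TGACNNNGC, as the looser TGANNNNGC, which includes the former, and as TGAGTCAGC and TGACTCAGC, both also matches of the looser core. The looser core was present in 8 of these 10 promoters and in 40.5% of all 33469 promoters, and TGACNNNGC in 3 of 10 and in 12.1%. TGAGTCAGC was present in Srxn1 alone among the members and in 0.4% of all promoters. TGACTCAGC was in 0 of the 10 and in 0.415% of all. The stretches below hold a match each of Srxn1, Gclm and Txnrd1, and for Slc7a11, the gene that changed most often, the 250 bases before its start. Capitals mark the matched element, read 5′ to 3′ on the strand of the gene. In Srxn1, where the looser core also matched on the reverse strand at -118, outside the stretch, and at -17, unmarked in it, they mark TGAGTCAGC, in Gclm and Txnrd1 the reverse strand match of TGACNNNGC, and in Slc7a11 the single match of TGANNNNGC. A match of letters is not a measured binding site.
Srxn1, chr3:161064742-161064815, plus strand: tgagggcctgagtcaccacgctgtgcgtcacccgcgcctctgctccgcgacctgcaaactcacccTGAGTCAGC
Gclm, chr2:213031935-213031994, plus strand: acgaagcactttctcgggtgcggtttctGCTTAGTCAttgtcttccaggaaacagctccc
Txnrd1, chr7:22755950-22756009, minus strand: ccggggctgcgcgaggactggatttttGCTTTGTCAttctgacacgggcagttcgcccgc
Slc7a11, chr2:136668265-136668514, minus strand: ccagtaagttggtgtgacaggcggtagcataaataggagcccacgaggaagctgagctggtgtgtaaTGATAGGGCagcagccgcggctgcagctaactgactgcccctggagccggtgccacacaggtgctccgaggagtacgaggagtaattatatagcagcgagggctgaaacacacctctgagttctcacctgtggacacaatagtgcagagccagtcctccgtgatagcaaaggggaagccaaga

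The level of several members differed far more between slides than between treatments. Slc7a11 was the extreme case. In the 4 Control arrays at 3 h its level was 7.35, 11.74, 12.22 and 10.96 in replicates 1 to 4. At 6 h the 4 Control arrays had 7.51, 11.96, 8.73 and 11.28. Replicate 1 was low at both times, replicates 2 and 4 were high at both, and replicate 3 was the highest at 3 h and the second lowest at 6 h. In bulk RNA, fewer expressing cells and less RNA per cell cannot be told apart.

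Averaged over the 4 arrays of a slide, Slc7a11 spanned 4.59 on the log2 scale at 3 h, a 24.1-fold range. This was rank 17 among the 13440 genes with a value on all 4 Control arrays. At 6 h its slide means spanned 3.43, a 10.7-fold range and rank 14 among 16399 genes. Over all genes the median slide range was 0.67 at 3 h and 0.52 at 6 h. The kept Slc7a11 probe is printed 10 times on the array and lies on chromosome 2 of rn4 (139241468 to 139241527, minus strand), in transcript NM_001107673. The second Slc7a11 probe was above background on 12 of 16 arrays at 3 h and on 8 of 16 at 6 h and was not kept. Its Control values at 3 h were 0.99, 5.94, 7.42 and 6.27, with replicate 1 again lowest and replicate 3 highest. The value of replicate 1 is near the floor, at the level of the undetected Gclm probe (0.73 to 2.82 at 3 h), so that its size is not a measured level.

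**Figure D1:**
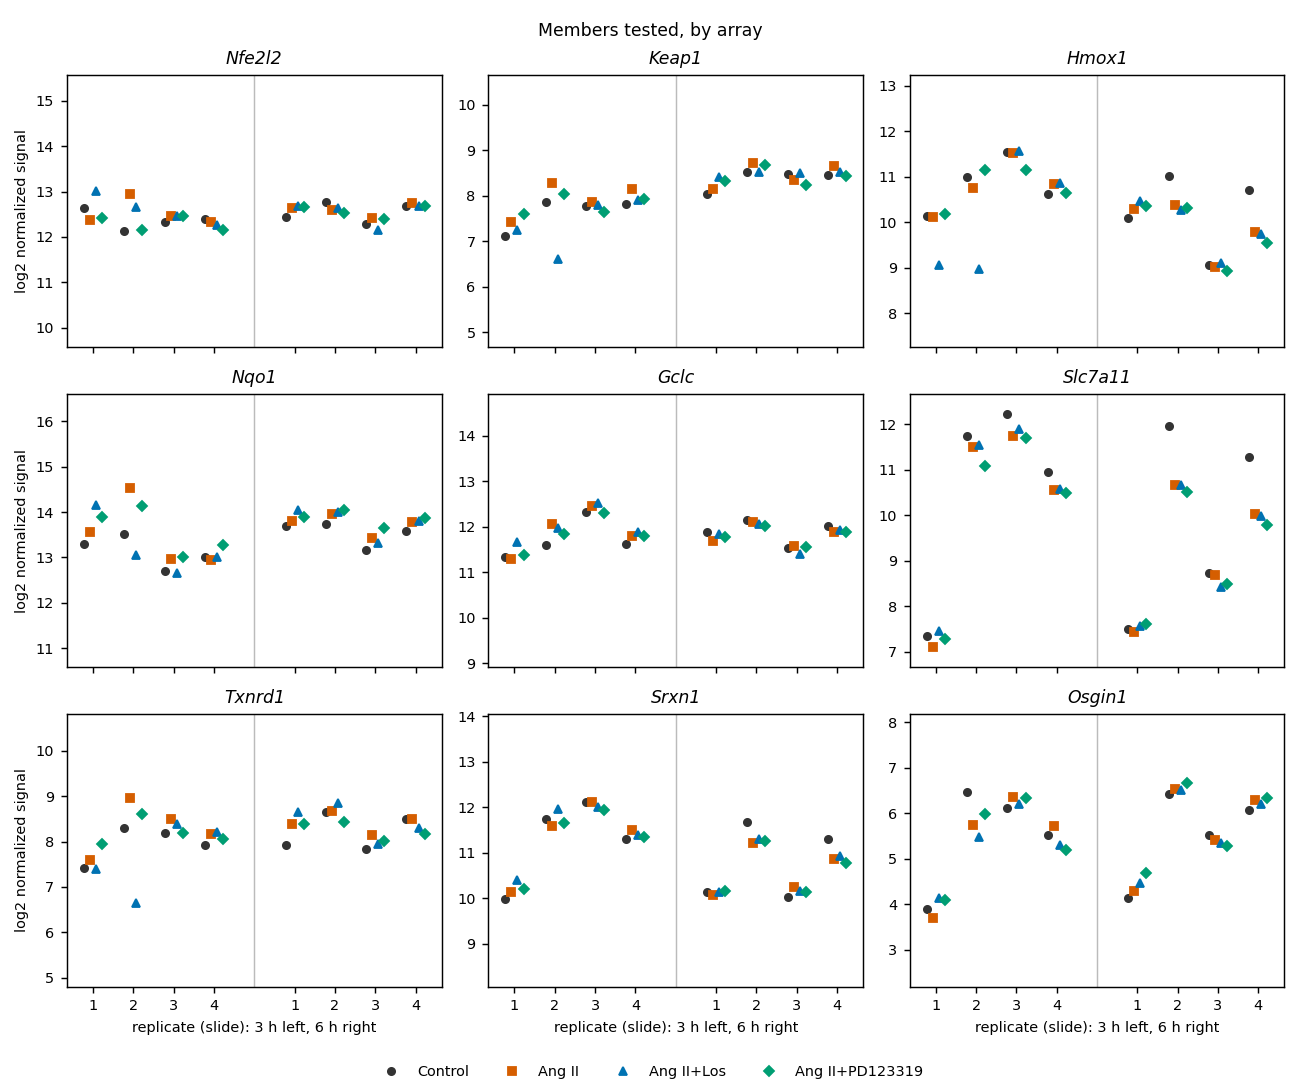
Log2 normalized signal of the 9 tested members on each of the 32 arrays, by replicate (slide) on the x axis with 3 h on the left and 6 h on the right of each panel. Symbols stand for the 4 treatments, and each panel has its own y axis. Slc7a11, Osgin1, Srxn1 and Hmox1 differ between slides, and at 3 h the Ang II+Los array of replicate 2 lies below the others of its slide in Hmox1, Keap1 and Txnrd1.

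Osgin1, which encodes an oxidative stress induced growth inhibitor, had slide means of 3.95, 5.92, 6.26 and 5.43 at 3 h. At 6 h these were 4.39, 6.53, 5.39 and 6.23. Its slide range of 2.31 at 3 h was larger than that of 96.4% of genes, and its range of 2.14 at 6 h was larger than that of 98.9%. Srxn1, the sulfiredoxin that repairs overoxidized peroxiredoxins, had slide means of 10.18, 11.74, 12.05 and 11.38 at 3 h and 10.13, 11.36, 10.15 and 10.97 at 6 h. Hmox1, the inducible heme oxygenase, had 9.87, 10.47, 11.45 and 10.74 at 3 h and 10.30, 10.49, 9.03 and 9.94 at 6 h. At 3 h all 4 of Slc7a11, Osgin1, Srxn1 and Hmox1 were lowest on slide 1 and highest on slide 3. At 6 h all 4 were highest on slide 2, with Hmox1 lowest on slide 3 and the others lowest on slide 1.

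Among the 9 members, Nfe2l2 and Keap1 had the smallest slide ranges at both times. Nfe2l2 had slide ranges of 0.32 at 3 h and 0.38 at 6 h, smaller than those of most genes. Keap1 had 0.61 and 0.38. The list of other regulators of NRF2 had larger ones, with medians of 1.10 over 14 genes at 3 h and 0.71 over 16 genes at 6 h. Gclc, the catalytic subunit of glutamate-cysteine ligase, had 0.99 and 0.57, and Nqo1, the quinone reductase, had 0.97 and 0.54. Nqo1 had its lowest mean at 3 h, 12.84, on slide 3, where the 4 genes above had their highest. Txnrd1, the thioredoxin reductase, had 0.73 and 0.67. The slide range exceeded the range of the 4 treatment means in 9 of 9 members at both times. For Nfe2l2 at 3 h this margin was small, 0.32 against 0.30. The medians of all genes had the same order, 0.67 for slides against 0.33 for treatments at 3 h and 0.52 against 0.21 at 6 h. The order is therefore not particular to the members.

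**Figure D2:**
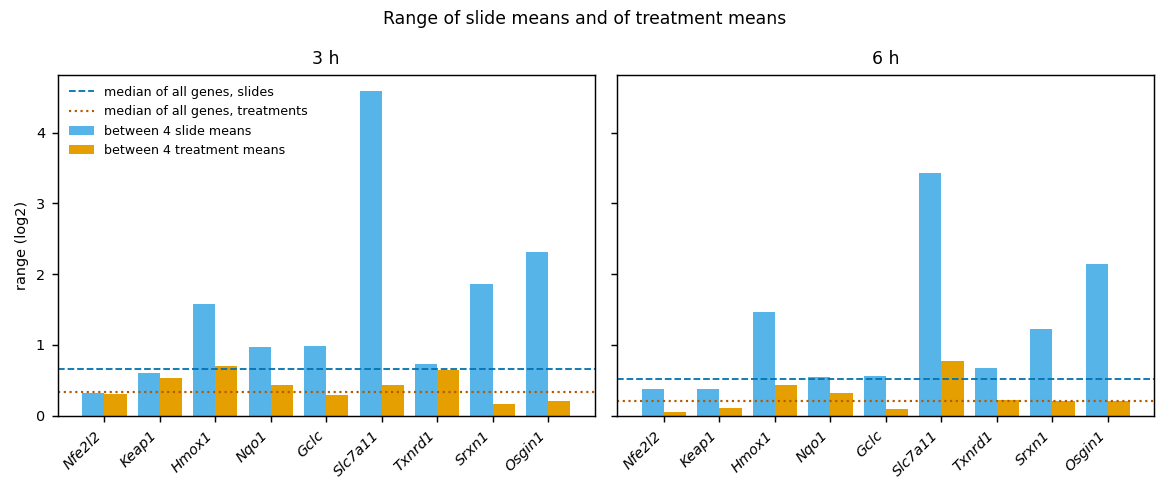
Range on the log2 scale between the 4 slide means (blue) and between the 4 treatment means (orange) of each tested member at 3 h and 6 h, with dashed and dotted lines for the medians of all genes. Slc7a11 has slide ranges of 4.59 and 3.43, and the blue bar exceeds the orange one for each of the 9 members at both times. The median line of all genes for slides likewise lies above that for treatments.

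The 6 tested genes of a list for the ATF4 stress response also differed greatly between slides, with a median slide range of 2.85 at 3 h and 2.40 at 6 h. Trib3, a pseudokinase induced by ATF4, had slide means of 6.20, 8.49, 11.96 and 8.49 at 3 h and 7.59, 11.74, 9.02 and 11.41 at 6 h. Ddit3, the transcription factor CHOP, had 10.26, 11.72, 15.05 and 11.39 at 3 h and 10.00, 13.30, 10.36 and 13.31 at 6 h. Both were lowest on slide 1 at both times, as Slc7a11 was. At 3 h their slide means were highest on slide 3, and at 6 h they were high on slides 2 and 4. Slide means average the Control array with the treated arrays, so that they also hold differences between treatments. At 3 h, Ddit3 in Ang II+Los differed from Control by -4.33 and -4.87 on slides 2 and 4. On slides 1 and 3 the differences were -0.07 and -0.06. The order of the 3 h slide means is therefore not one of Control levels alone. Asns, the asparagine synthetase, was highest on slide 2 in place of slide 3 at 3 h, with 12.92 against 12.84. Replicate and slide are the same here, so that culture and slide cannot be told apart. The heat shock list did not share this spread, with median slide ranges of 0.65 and 0.42.

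**Figure D3:**
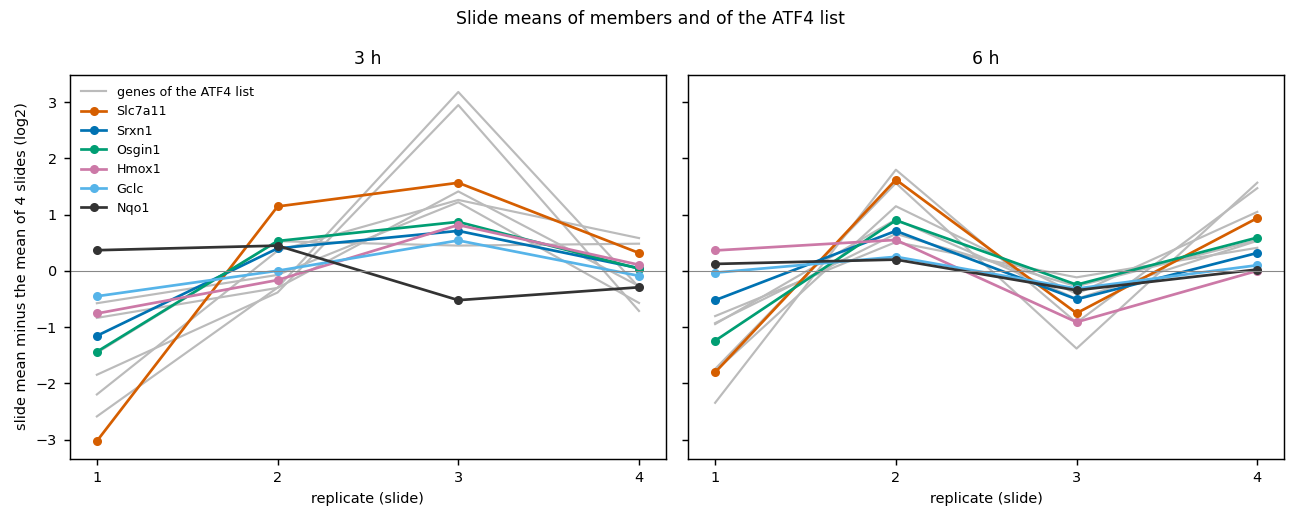
Slide means minus the mean of the 4 slides (log2) for 6 members in colour and for the 6 tested genes of the ATF4 list in grey, by replicate (slide) at 3 h and 6 h. Slc7a11, Srxn1 and Osgin1 are low on slide 1 at both times and high on slide 2, as the ATF4 genes are at 6 h, whereas Nqo1 does not have this profile.

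Treatments were compared within slides, and a gene was called when its unadjusted limma p was under 0.05 and its fold change above 1.2 or below 0.8. Adjusted p-values are Benjamini-Hochberg values over all genes tested, from the same limma fit. In Ang II x Control at 3 h, the comparison for the effect of Ang II, 1 of 9 members was called, against 11% of the 13630 genes tested. That member was Slc7a11, which fell by 0.35 on the log2 scale (standard error 0.11, adjusted p = 0.325). The Ang II arrays had 7.10, 11.49, 11.73 and 10.55, each below the Control array of its slide, with differences of -0.25, -0.25, -0.48 and -0.41 in replicates 1 to 4. The groups overlap, and the difference shows within slides only. The gene was not called without replicate 3 (-0.30) or without replicate 4 (-0.33).

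The other 8 members were not called at 3 h. A paired t-test and a fit to the 8 arrays of the comparison alone each called Keap1 and Txnrd1 in addition. Nqo1 had a log2 fold change of 0.36 (95% confidence interval -0.17 to 0.90), with differences of 0.26, 1.01, 0.26 and -0.07 in the 4 replicates. Txnrd1 had 0.35 (interval -0.36 to 1.06) and Keap1 0.29 (interval -0.23 to 0.81), and both were higher in 4 of 4 replicates. Gclc had 0.19, Nfe2l2 0.15 and Srxn1 0.05. Hmox1 had -0.01 (interval -0.75 to 0.73) and Osgin1 -0.12. The median of the 9 members was 0.15 and that of all genes 0.00. All intervals other than that of Slc7a11 included 0.

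In Ang II x Control at 6 h, 1 of 9 members was called, against 11.5% of the 16446 genes tested. It was Slc7a11 again, which fell by 0.67 (standard error 0.24, adjusted p = 0.154). The Ang II arrays had 7.44, 10.67, 8.67 and 10.03, and the differences from Control were -0.06, -1.29, -0.06 and -1.25. The change was thus carried by replicates 2 and 4, the slides on which its Control level was highest. Without replicate 2 the log2 fold change was -0.46 and without replicate 4 it was -0.47, neither of them called. Without replicate 1 or replicate 3 it was -0.87 and was called. Replicates 1 to 3 were scanned on 1 day and replicate 4 on another, so that the 2 large differences came from different days of scanning. A paired t-test did not call the gene at 6 h (adjusted p = 0.501).

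Hmox1 and Srxn1 had the same uneven profile at 6 h without being called. Hmox1 differed from Control by 0.21, -0.64, -0.05 and -0.92 in replicates 1 to 4, with a log2 fold change of -0.35 (interval -0.78 to 0.08). Without replicate 1 it was -0.54 and was called. Srxn1 differed by -0.07, -0.45, 0.22 and -0.45, with a log2 fold change of -0.19 (interval -0.42 to 0.05). Without replicate 3 it was -0.32 and was called. Nqo1 was higher in 4 of 4 replicates at 6 h, by 0.09, 0.21, 0.27 and 0.19. Its log2 fold change of 0.19 (standard error 0.07, adjusted p = 0.163) was under the fold limit. Txnrd1 was also higher in 4 of 4, with 0.21 (interval -0.07 to 0.49). The remaining members lay between -0.07 and 0.10. The median of the 9 members was 0.06 and that of all genes -0.01.

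**Figure D4:**
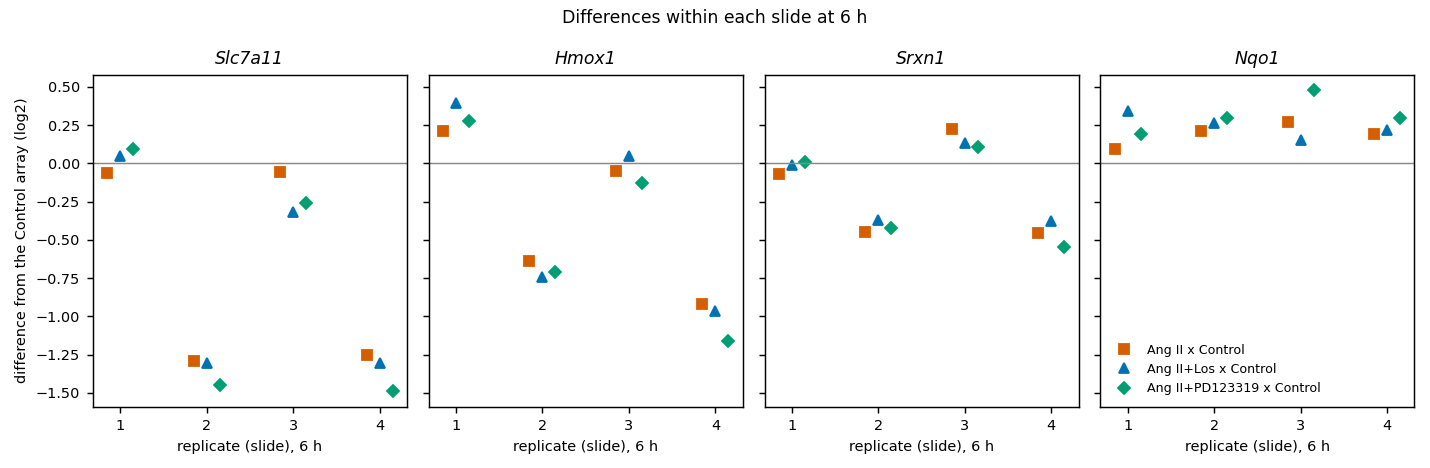
Difference of each treated array from the Control array of its slide at 6 h (log2), for Slc7a11, Hmox1, Srxn1 and Nqo1, by replicate, with a symbol for each of the 3 treated groups. Slc7a11, Hmox1 and Srxn1 are lower in replicates 2 and 4 in every treated group, and Nqo1 is above 0 in all 12 differences.

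The antagonist comparisons ask which part of the response runs through AT1 or AT2. They share the Ang II arrays with Ang II x Control, so that an Ang II array that lies high or low moves both. With Losartan at 3 h, compared with Ang II alone (Ang II+Los x Ang II), 1 of 9 members was called, against 10.1% of genes. It was Keap1, which fell by 0.54 (standard error 0.24, adjusted p = 0.427). The differences were -0.18, -1.68, -0.06 and -0.24, so that replicate 2 had most of the change. Keap1 was no longer called without replicate 1 (-0.66), replicate 2 (-0.16) or replicate 4 (-0.64), and it was called without replicate 3 (-0.70). On slide 2 the Ang II+Los array had 6.61 for Keap1, against 7.86 to 8.29 in the other 3 groups. Txnrd1 was low there too, with 6.64 against 8.30 to 8.97, and so was Hmox1, with 8.97 against 10.76 to 11.16. Nqo1 differed from Ang II by -1.47 on that slide, where the Ang II array was high, with 14.52 against 13.51 in Control and 13.05 in Ang II+Los. Slc7a11 differed there by 0.06 and Srxn1 by 0.38. Hmox1 also differed by -1.06 in replicate 1 and by 0.03 in replicates 3 and 4 each, and its log2 fold change was -0.69 (interval -1.43 to 0.05). It was called without replicate 3 or without replicate 4, with -0.94 each. The 2 Txnrd1 probes gave -0.93 and -0.37.

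With Losartan at 6 h, 0 of 9 members were called, against 0.9% of genes, and 0 had an unadjusted p under 0.05, against 1.99% of genes. All 9 log2 fold changes lay between -0.06 and 0.05. For Slc7a11 the value was -0.05, with an interval of -0.57 to 0.47. At 3 h, Slc7a11 had been higher with Losartan in 4 of 4 replicates, by 0.35, 0.06, 0.15 and 0.02, with a log2 fold change of 0.14 (interval -0.10 to 0.39) that was not called. With PD123319 (Ang II+PD123319 x Ang II), 0 of 9 members were called at 3 h and at 6 h, against 2.64% and 3.79% of genes. Their unadjusted p was above 0.05 throughout, whereas it was below for 2.99% and 6.37% of genes. Slc7a11 had -0.08 at 3 h (interval -0.33 to 0.16) and -0.11 at 6 h (interval -0.63 to 0.41). Nqo1 had 0.08 and 0.12. A paired t-test also called 0 members in these 3 comparisons.

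**Figure D5:**
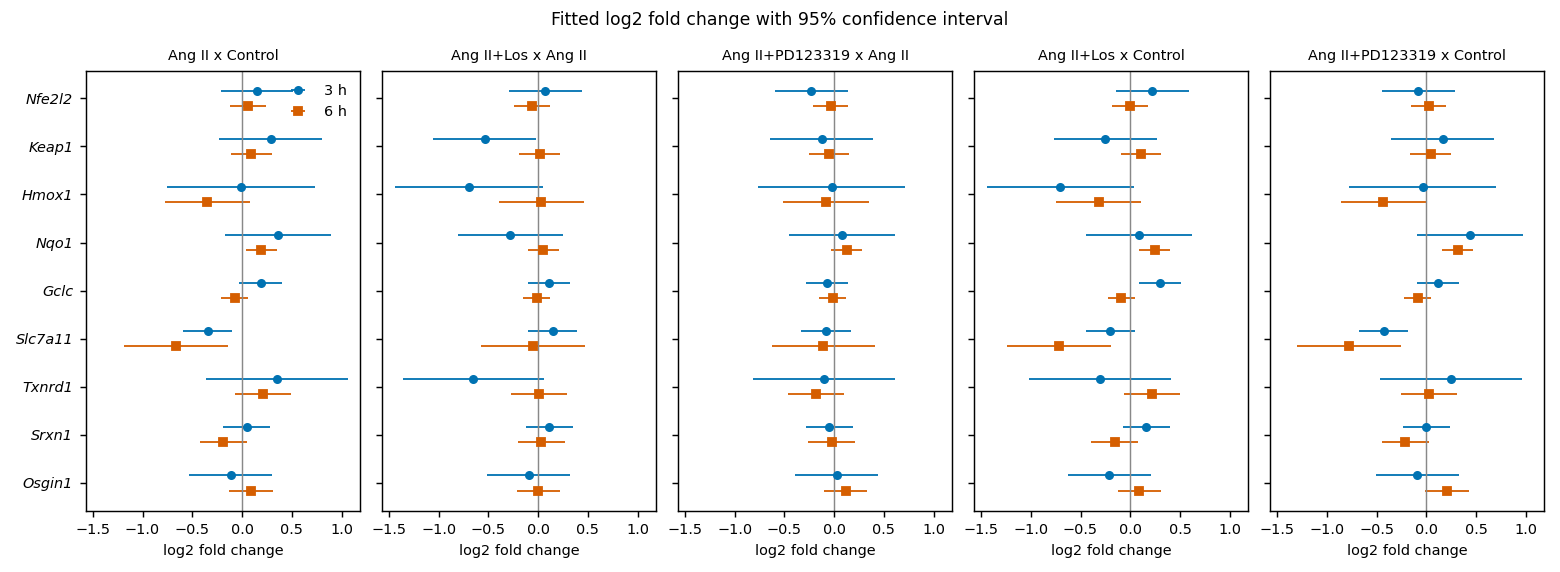
Fitted log2 fold change of each tested member with its 95% confidence interval in the 5 comparisons, 3 h as circles and 6 h as squares. At 6 h Slc7a11 lies between -0.67 and -0.78 in the 3 comparisons with Control and near 0 in the 2 comparisons with Ang II.

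The groups with an antagonist were also set against Control. These comparisons use the same Control arrays as Ang II x Control and are no independent repeat of it. At 3 h, Gclc rose by 0.30 in Ang II+Los x Control (standard error 0.10, adjusted p = 0.178), with differences of 0.34, 0.38, 0.21 and 0.27. It was the only one of 9 members called there, against 20% of genes, and it was not called without replicate 4 (0.31). Slc7a11 had -0.20 in that comparison and was not called. In Ang II+PD123319 x Control at 3 h Slc7a11 was the only one of 9 called, against 6.1% of genes. It fell by 0.43 (standard error 0.11, adjusted p = 0.461), with differences of -0.08, -0.66, -0.51 and -0.47.

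At 6 h, Slc7a11 was the only member called in Ang II+Los x Control, against 11.4% of genes. It fell by 0.72 (standard error 0.24, adjusted p = 0.115), with differences of 0.05, -1.30, -0.32 and -1.30. Nqo1 had 0.24 there and was higher in 4 of 4 replicates, under the fold limit. In Ang II+PD123319 x Control 3 of 9 members were called, against 13.5% of genes. Slc7a11 fell by 0.78 (standard error 0.24, adjusted p = 0.0979), with differences of 0.09, -1.45, -0.26 and -1.49. Hmox1 fell by 0.43 (standard error 0.20, adjusted p = 0.214), with differences of 0.28, -0.71, -0.13 and -1.16, and it was called neither without replicate 2 (-0.34), 3 (-0.53) or 4 (-0.19) nor by a paired t-test. Nqo1 rose by 0.32 (standard error 0.07, adjusted p = 0.0514). Its Control arrays had 13.70, 13.74, 13.16 and 13.58 and its Ang II+PD123319 arrays 13.89, 14.03, 13.64 and 13.88, higher on each slide by 0.19, 0.29, 0.48 and 0.30. This was the lowest adjusted p of any member, and in that comparison 1.38% of genes had one under 0.05, against 1.36% in Ang II+Los x Control. These 227 and 224 genes became 1 and 0 without replicate 2 and 0 and 0 without replicate 4, and 412 and 3 without replicate 1. Without replicate 3 the 224 became 796. Without replicate 3 Nqo1 had 0.26 and was under the fold limit. Its adjusted p in limma was 0.0462 with the stricter filter on dim probes and 0.0467 without replicate 1. The falls of Slc7a11 in these last 2 comparisons were no longer called without replicate 2 or without replicate 4, with values between -0.52 and -0.55.

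In all 10 comparisons the adjusted p of every member was above 0.05. The difference between the change at 6 h and the change at 3 h was tested for 13617 genes. The lowest adjusted p of a member was 0.667 in Ang II x Control, 0.704 with Losartan and 1.00 with PD123319. The only member with an unadjusted p under 0.05 was Gclc in Ang II x Control, with 0.19 at 3 h and -0.07 at 6 h. For Slc7a11 the fall was not shown to differ between the times (difference -0.32, standard error 0.27, adjusted p = 0.780). The slides of the 2 times were different, and so were the days of scanning and the protocol of the scanner software. Time and these cannot be told apart.

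A wider set of 93 genes of the pathway outside the members was compared in the same fits, of which 79 were tested at 3 h and 83 at 6 h. In Ang II x Control 5 rose and 4 fell at 3 h, which is 11.4% of those tested against 11% of all genes. At 6 h 3 rose and 6 fell, 10.8% against 11.5%. The medians of these genes were 0.05 and -0.03 on the log2 scale, for 3 h and 6 h. Relative to Ang II, 0 rose and 3 fell with Losartan at 3 h, 3.8% against 10.1% of all genes, and 0 were called at 6 h, against 0.9%. With PD123319 0 were called at 3 h, against 2.64%, and 1 rose at 6 h, 1.2% against 3.79%. After adjustment 0 of these genes passed 0.05 in a comparison. Among 14 detoxification enzymes and efflux pumps tested at 3 h, Cbr3, a carbonyl reductase, rose by 0.68 (adjusted p = 0.322), with 0.28, 1.04, 0.36 and 1.03 in the 4 replicates. Among 14 other regulators of NRF2, 2 fell at 3 h. One was Syvn1, the endoplasmic reticulum ubiquitin ligase HRD1, which fell by 0.81 (adjusted p = 0.322). At 6 h Maff, a small MAF protein, rose by 0.65 (adjusted p = 0.0950), with 0.22, 1.01, 0.21 and 1.15. Of the 6 superoxide, peroxide and metallothionein genes at 6 h, 2 fell and 1 rose. Mt1a fell by 0.52 (adjusted p = 0.132) and Mt2A by 0.38 (adjusted p = 0.122), both lower in 4 of 4 replicates. Of the 9 thioredoxins and peroxiredoxins and of the 17 glutathione S-transferases, 0 and 1 were called at 3 h and 0 and 0 at 6 h.

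The ATF4 list fell with Ang II in 4 of its 6 tested genes at 3 h and in 4 of 6 at 6 h, with a median log2 fold change over the 6 genes of -1.01 and -0.45, against 11% and 11.5% of all genes called. At 3 h the change lay in replicates 2 and 4, where Ddit3 differed by -4.80 and -4.95, against -0.05 and 0.02 in replicates 1 and 3. Slc7a11 did not have this profile at 3 h, with differences of -0.25, -0.25, -0.48 and -0.41. At 6 h Ddit3 fell by 1.16 (adjusted p = 0.132), with differences of -0.34, -2.23, -0.17 and -1.92. These were larger in replicates 2 and 4, as those of Slc7a11 were at 6 h. Nupr1, a stress-induced nuclear protein, fell by 1.26 (adjusted p = 0.118) with another profile, -1.88, -1.51, -0.15 and -1.52, the largest in replicate 1. In Ang II+Los x Control at 6 h Nupr1 had -0.08, -1.73, -0.05 and -1.69. In Ang II+PD123319 x Control it had -0.02, -1.52, -0.11 and -1.79. The large difference of Nupr1 in replicate 1 was thus seen in the Ang II array alone. In Ang II x Control at 6 h Trib3 fell by 0.50 (adjusted p = 0.117). Its differences were -0.84, -0.45 and -0.72 in replicates 2 to 4, with hardly any in replicate 1. In the heat shock list 3 of 6 genes rose at 3 h and 4 of 6 at 6 h, with medians of 0.37 and 0.31. Hsph1, a chaperone of the HSP110 family, rose by 1.04 at 6 h (adjusted p = 0.0575), with 0.83, 1.42, 0.42 and 1.48. It also rose in Ang II+Los x Control by 0.98 (adjusted p = 0.0370) and in Ang II+PD123319 x Control by 0.91 (adjusted p = 0.0409) at 6 h. Without replicate 1, 2 or 4 these adjusted limma p-values lay between 0.0530 and 0.323, and without the replicate block at 0.999 and 0.405.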

How the data were processed

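Total RNA of C6 cells was labelled with 1 dye and hybridized to 4 x 44K rat arrays. The authors extracted a background-subtracted intensity per spot with Agilent Feature Extraction 9.5.3.1, per the file headers, and deposited these intensities. The deposited log2 values are the log2 of the same intensity, since 561803 values compared were equal within 1e-06, and 38.2% are blank. No normalization between arrays had been applied. Their own normalization was Löwess followed by t-tests, for which the methods state no pairing and which the series design calls paired. Coordinates of probes are on rn4, per the file headers.

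At 3 h, a spot whose signal was not positive and significant took the error of its signal in place of the signal. This was 22.8% to 33.0% of the spots of an array, against 0% at 6 h. Outlier spots were removed, spots of a probe were averaged, and the log2 signals of the 16 arrays of a time interval were normalized by cyclic loess (span 0.7, 3 iterations). Probes had to be well above background in every array of 1 group or more, and kept probes of a gene were averaged. limma 3.58.1 (R 4.3.3, with version 1.17.8 of data.table) was fitted to the 16 arrays of a time with the slide as a block. The method was tested on simulated data. Arrays have no read depth, and their number limits the precision. The replicate numbers were taken to pair the samples. Deviations from group means correlated by 0.15 to 0.92 within slides at 3 h and 0.55 to 0.83 at 6 h, over 24 pairs each. Between arrays of different slides and groups they correlated by -0.72 to 0.37 at 3 h and by -0.66 to 0.13 at 6 h. The ranges thus overlapped at 3 h, and taking deviations from group means itself lowers the correlations between slides. At 3 h replicates 1 and 2 were scanned on 1 day and replicates 3 and 4 on another. The closest replicates of a group differed by a median of 0.18 (log2) or more, so all were counted.

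All members are reported in every comparison, and from each other list up to 3 genes per comparison with the lowest p among those called and alike in 4 of 4 replicates could be named. Asns was named, and the slide means of Trib3 and Ddit3 and the 3 h differences of Ddit3 were shown, after their values were seen. Of 107 list genes, 99 were found as named, 6 by an alternative name and 2, Pgd and Chac1, were not found. The members and lists were chosen with earlier results of these data known. Alternatives were a fit without the replicate block, paired t-tests, an unpaired t-test with equal variances (chosen after seeing the data), 75th percentile scaling, quantile normalization, normexp with an offset of 50, no filter or a strict one, the brightest probe, 8 arrays alone, the deposited values, and each replicate left out. Promoter sequences come from RefSeq. Figures used Python 3.11.15, numpy 2.4.6, pandas 2.3.3 and matplotlib 3.10.9.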

Additional observations from a re-analysis of the deposited data

Results flagged for a closer look

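Of 72 sets of 4 arrays (9 members in 8 groups), 3 held an array farther from its nearest neighbour than Dixon's 95% critical value allows, and chance gives about 1 in 20. Keap1 in Control at 3 h was 7.12 in replicate 1, against 7.77 to 7.86 in the other 3 arrays. Keap1 in Control at 6 h was 8.04 in replicate 1, against 8.46 to 8.53. Nfe2l2 in Ang II+Los at 6 h was 12.16 in replicate 3, against 12.64 to 12.68.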

How the results depend on the processing

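Without the replicate block 0 members were called in each of the 7 comparisons that had a call, and 0 by an unpaired t-test, which was chosen after seeing the data. A paired t-test gave 3 members in Ang II x Control at 3 h (Slc7a11, Keap1 and Txnrd1), 0 at 6 h, 0 for Losartan against Ang II at 3 h, 0 in Ang II+Los x Control at 6 h, and 2 and 1 in Ang II+PD123319 x Control at 3 h and 6 h. The 8 arrays alone gave 3 in Ang II x Control, 0 for Losartan against Ang II, 0 in Ang II+Los x Control and 2 in Ang II+PD123319 x Control, all at 3 h. Without the filter the numbers were 0 in Ang II x Control at 6 h, 0 for Losartan against Ang II at 3 h, 2 and 0 in Ang II+Los x Control at 3 h and 6 h, and 1 in Ang II+PD123319 x Control at 6 h. In Ang II+Los x Control at 3 h, normexp and the deposited values gave 0. In Ang II+PD123319 x Control at 3 h, 75th percentile scaling gave 2.

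Leaving out 1 replicate at a time gave 0 to 1 members for Ang II against Control at 3 h and 0 to 2 at 6 h, 0 to 2 for Losartan against Ang II at 3 h, 1 to 2 and 0 to 2 in Ang II+Los x Control, and 1 to 1 and 1 to 3 in Ang II+PD123319 x Control. Among 11 member results recomputed under up to 15 alternatives, 109 of 162 values kept their side of the limits, 52 lost the call, 1 gained it and 0 changed direction. The adjusted p of Nqo1 in Ang II+PD123319 x Control at 6 h lay between 0.0462 and 1.00. Of other genes, Gsta2 in Ang II+Los x Control at 3 h turned to -0.029 with normexp, and Hspa8 at 3 h turned to -0.23 in Ang II x Control and -0.21 in Ang II+PD123319 x Control with its brightest probe. The cause was not tested. Over all genes, the 1503 calls of Ang II x Control at 3 h ranged from 209 to 2000 over the other alternatives, and the 1885 at 6 h from 286 to 2187. Dim probes limit what can be said of Gclm, and 4 slides limit the rest.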
